A study of Mus musculus with 9 samples.

Results

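The guide strands of mmu-miR-221 and mmu-miR-222 were measured in isolated glomeruli of mice with glomerulonephritis (GN) and of healthy mice. They were picked out by name, as the probes called mmu-miR-221 (MIMAT0000669) and mmu-miR-222 (MIMAT0000670) in the scanner output without the star of a passenger strand. No measured value entered that rule, but earlier results of these data were known when the pair was chosen. They are 2 of the 1135 probes of a single-colour 3D-Gene miRNA array, and both were among the 411 miRNAs that had a listed value on all 9 arrays. The early GN group held 3 female B6.MRLc1 mice aged 9 months, the late GN group 3 female B6.MRLc1 mice aged 14 months, and the control group 3 female C57BL/6 mice aged 9 months. B6.MRLc1 is a congenic strain that carries part of chromosome 1 of the autoimmune MRL/MpJ strain on the C57BL/6 background, and 1 array was hybridized per mouse with RNA of glomeruli pulled down with magnetic beads. Late GN was set against control mice 5 months younger, so disease stage and age cannot be told apart in that comparison, and in both comparisons with control disease cannot be told apart from strain. The labels give C57BL/6 as the strain of the early GN samples and a description of the series swaps the ages of both disease stages, so the groups follow the sample titles and the methods.

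miR-221 and miR-222 are transcribed together from a single locus and share their seed, the bases that pair with target mRNAs, so they can act on overlapping sets of mRNAs. Their best known targets are the cyclin-dependent kinase inhibitors p27 (Cdkn1b) and p57 (Cdkn1c), brakes of the cell cycle, and in several human tumours high levels of both miRNAs go with proliferation. In rat vascular smooth muscle they promote growth, while in human endothelial cells they repress KIT and limit the response to stem cell factor. Glomeruli hold both an endothelium and the contractile mesangial cells, which proliferate in many forms of GN.

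The mature sequences are shown because the shared seed, bases 2 to 8 in capitals, is what makes the pair a family, and because the array tells them apart only by the rest of the molecule. They come from RefSeq (GRCm38.p6), where both lie on the minus strand of chromosome X, miR-221 at chrX:19146307-19146329 and miR-222 at chrX:19146901-19146923.
mmu-miR-221-3p: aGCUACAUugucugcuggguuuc
mmu-miR-222-3p: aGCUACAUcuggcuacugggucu
mmu-miR-1928: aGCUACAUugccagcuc
The first 8 bases of miR-221 and miR-222 are identical, and only 3 of the remaining 15 positions match, so 11 of 23 positions match in all. Among 1679 mature mouse miRNA names in the RefSeq table, 3 carry this seed, and the other one, miR-1928 on chromosome 1, is 17 bases long and shares its first 10 bases with miR-221. The hairpins, from which both guide strands are cut (mature part in capitals), are separated by 504 bases.
Mir221: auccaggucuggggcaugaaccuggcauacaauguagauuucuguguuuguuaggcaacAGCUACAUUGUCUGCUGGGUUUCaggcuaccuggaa
Mir222: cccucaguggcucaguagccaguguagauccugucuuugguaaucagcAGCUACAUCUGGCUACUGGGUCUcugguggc
In both hairpins the guide strand is the arm nearer the 3′ end, which occupies positions 60 to 82 of the 95 bases of Mir221 and positions 49 to 71 of the 79 bases of Mir222.

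The arrays themselves differed as a whole, and every value of the pair has to be read beside that. The deposited values are fluorescence intensities after the authors' global normalization, in which each array's listed values have a median of 25. Early GN arrays 1 and 2 listed 428 and 498 probes and early GN array 3 listed 738, while the late GN arrays listed 693 to 755 and the control arrays 588 to 595. Set against the mean of the controls, the 411 miRNAs had a median log2 ratio of -1.03, -0.61 and 0.51 on early GN arrays 1, 2 and 3, and of 0.33 to 0.44 on late GN arrays. Comparisons are therefore given on the deposited scale and again with the 411 miRNAs of each array set to a common median, which removes any shift that all miRNAs share, whatever its source. The deposited table also differed in format between arrays. On early GN array 3 and the late GN arrays, 147 to 168 values were written with more than 2 decimals, and on the other 5 arrays none was, so early GN array 3 shared with late GN both this format and the larger number of listed probes. Late GN and control lie wholly on different sides of that difference, so format and group cannot be told apart there. Both members were written with 2 decimals on every array. Blank spots had a mean signal of 30.5 to 36.8 and an SD of 2.51 to 3.53.

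miR-221 was well above the blank spots on every array. Its normalized value was 116.73, 96.83 and 175.64 on early GN arrays 1, 2 and 3, 222.22, 206.84 and 235.81 on late GN arrays 1, 2 and 3, and 165.44, 191.27 and 166.58 on control arrays 1, 2 and 3. All 3 late GN arrays lay above all 3 control arrays and all 3 early GN arrays, and early GN array 3 lay among the controls while early GN arrays 1 and 2 lay below them. The means were 129.7 ± 41.0 in early GN, 221.6 ± 14.5 in late GN and 174.4 ± 14.6 in control glomeruli (SD, n = 3 each). Before scaling, the spot signal above the blank mean was 70.4 to 108.7 in early GN, 113.6 to 176.2 in late GN and 84.9 to 99.3 in control, which is 21.8 to 53.0 times the SD of the blank spots. Unscaled, early GN array 1 read higher than every control array, and its low normalized value came with the smallest array factor, 1.09, against 1.67 to 1.97 on the control arrays.

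miR-222 was a dim probe, nearer to the background of the array. Its normalized value was 19.62, 20.08 and 64.33 on early GN arrays 1, 2 and 3, 60.90, 57.04 and 69.66 on late GN arrays 1, 2 and 3, and 54.60, 37.67 and 51.77 on control arrays 1, 2 and 3. Late GN arrays again lay above all control arrays, but early GN array 3 read as high as late GN, so that early and late GN overlapped. The means were 34.7 ± 25.7 in early GN, 62.5 ± 6.47 in late GN and 48.0 ± 9.07 in control glomeruli (SD, n = 3 each). The coefficient of variation was 74.1% in early GN, 10.3% in late GN and 18.9% in control, against 31.6%, 6.54% and 8.37% for miR-221 in the same groups. Its spot signal above the blank mean was 14.9 to 22.4 in early GN, 28.5 to 52.2 in late GN and 21.2 to 31.3 in control, or 4.21 to 15.7 blank SDs. The 3 early GN spots thus lay close to each other before scaling, and the factor applied was 2.34 on early GN array 3, against 1.09 and 1.24 on early GN arrays 1 and 2.

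**Figure D1:**
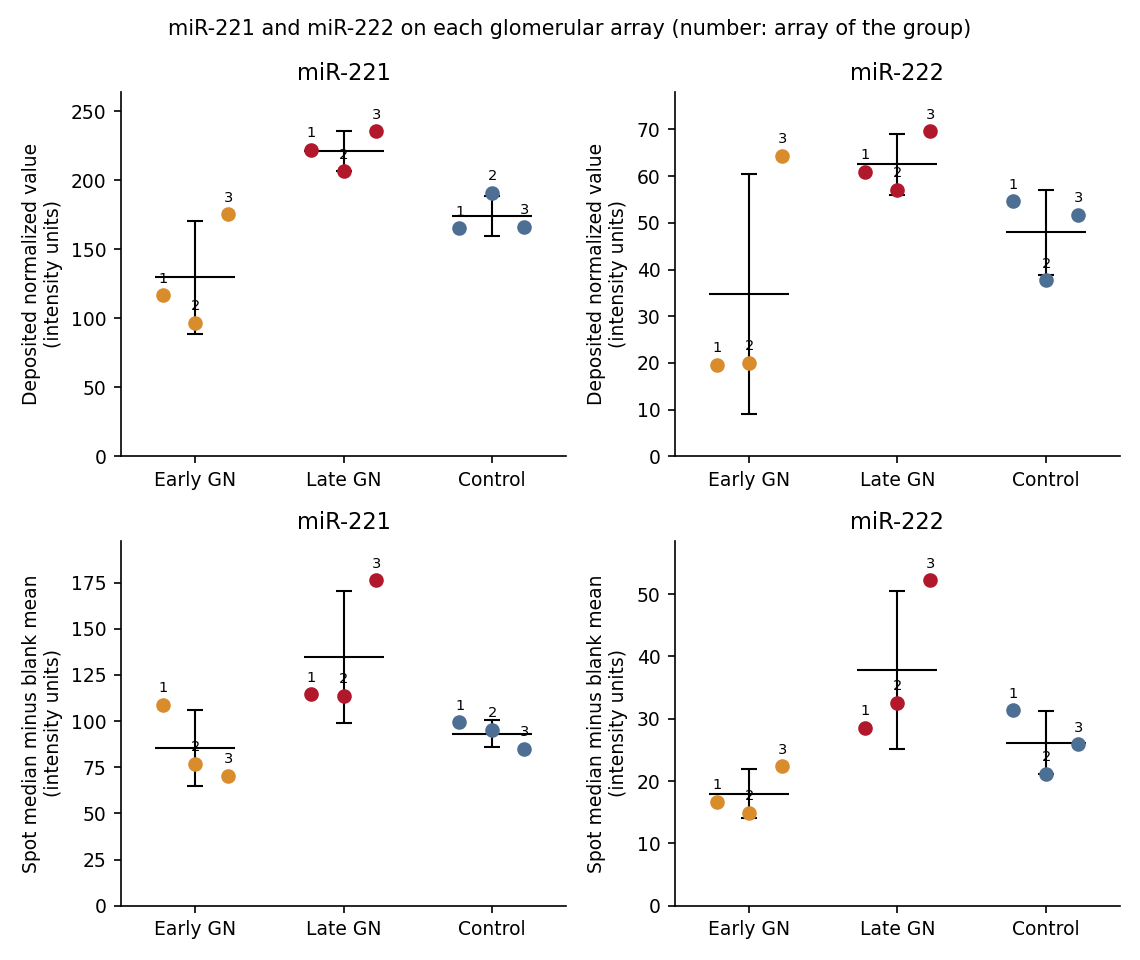
Deposited normalized value (top) and spot median minus the mean of the blank spots (bottom), both in intensity units, of miR-221 (left) and miR-222 (right) on the arrays of early GN, late GN and control glomeruli. Points are single arrays with their number, and bars are the mean and SD of 3 arrays. The late GN arrays lie above all control arrays for both miRNAs in the top panels, and early GN array 3 stands above early GN arrays 1 and 2 there but not for miR-221 in the bottom panels.

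A second reading of the same spots shows how finely these values can be read. Multiplying the spot signal above the blank mean by the array's factor, taken from probes above 2000, gave 165.9, 169.7 and 167.5 for miR-221 on control arrays 1, 2 and 3, where the listed values were 165.44, 191.27 and 166.58. For miR-222 the same step gave 52.5 on early GN array 3 and 53.5 on late GN array 1, below the listed 64.33 and 60.90. Across probes listed below 300, the listed value and the spot median differed with an SD of 2.25 to 3.22 spot units per array, which is small beside the signal of miR-221 and a larger share of that of miR-222. On this reading the late GN arrays lay above all control arrays for both miRNAs, at 201.8 to 229.6 against 165.9 to 169.7 for miR-221 and at 53.5 to 68.0 against 37.8 to 52.3 for miR-222. Such a lack of overlap was common on the deposited scale, at 49.1% of the 411 miRNAs, and was not counted over all miRNAs on this reading. For miR-222 the lowest late GN value and the highest control value, 53.5 and 52.3, lay closer together than the scatter of dim probes, so their order cannot be read.

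In late GN against control glomeruli, the question was whether the pair differed at the stage when disease is advanced. miR-221 was 1.27 times and miR-222 1.30 times the control mean, and neither passed the test. The log2 difference was 0.35 for miR-221 (95% interval -0.52 to 1.22, limma adjusted p = 0.583) and 0.39 for miR-222 (95% interval -0.48 to 1.27, limma adjusted p = 0.522). By the exact permutation test of 3 arrays against 3, p = 0.1 for each (2-sided), the smallest value this design allows. The late GN arrays shared no slide with another group, and with slide as a random block the difference was 0.35 for miR-221 (limma adjusted p = 0.612) and 0.37 for miR-222 (limma adjusted p = 0.590). Of 411 miRNAs, 16 (3.89%) were called higher and 1 (0.243%) lower. The lack of overlap with the control arrays was common, since 202 of the 411 miRNAs (49.1%) lay wholly above control in late GN. The median log2 difference of all 411 was 0.45, and 216 miRNAs had a larger difference than miR-221 and 212 a larger one than miR-222.

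With each array set to a common median, the difference of both miRNAs was near 0 and the groups overlapped. It was 0.03 for miR-221 (95% interval -0.43 to 0.49, limma adjusted p = 0.887) and 0.08 for miR-222 (95% interval -0.37 to 0.53, limma adjusted p = 0.730). On this scale 132 miRNAs (32.1%) were called higher and 123 (29.9%) lower, 62% of the 411 in either direction, and miR-221 and miR-222 were not among them. On the deposited scale the 411 differences formed a mound on either side of 0, with 48 miRNAs between -0.4 and -0.2 and 74 between 0.8 and 1.0, and both members fell between 0.2 and 0.4, where only 12 miRNAs lay. The side on which a miRNA fell tended to go with its level in the controls. The median difference was 0.69 for the 257 miRNAs with a control mean under 100, the range of miR-222, -0.11 for the 96 miRNAs from 100 to 1000, the range of miR-221, and -0.47 for the 58 above. Set to a common median, it was 0.37, -0.43 and -0.79 in these 3 ranges, where 45, 39 and 39 miRNAs were called lower, so that miR-222 lay below the median of its range and miR-221 above that of its own. The methods' t-test on the linear values did call miR-221 higher in late GN (adjusted p = 0.0378) among 156 miRNAs, 38% of the 411, and did not call miR-222 (adjusted p = 0.123). When arrays were scaled by the 75th percentile over all probes instead, both log2 differences turned negative, at -0.12 for each.

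**Figure D2:**
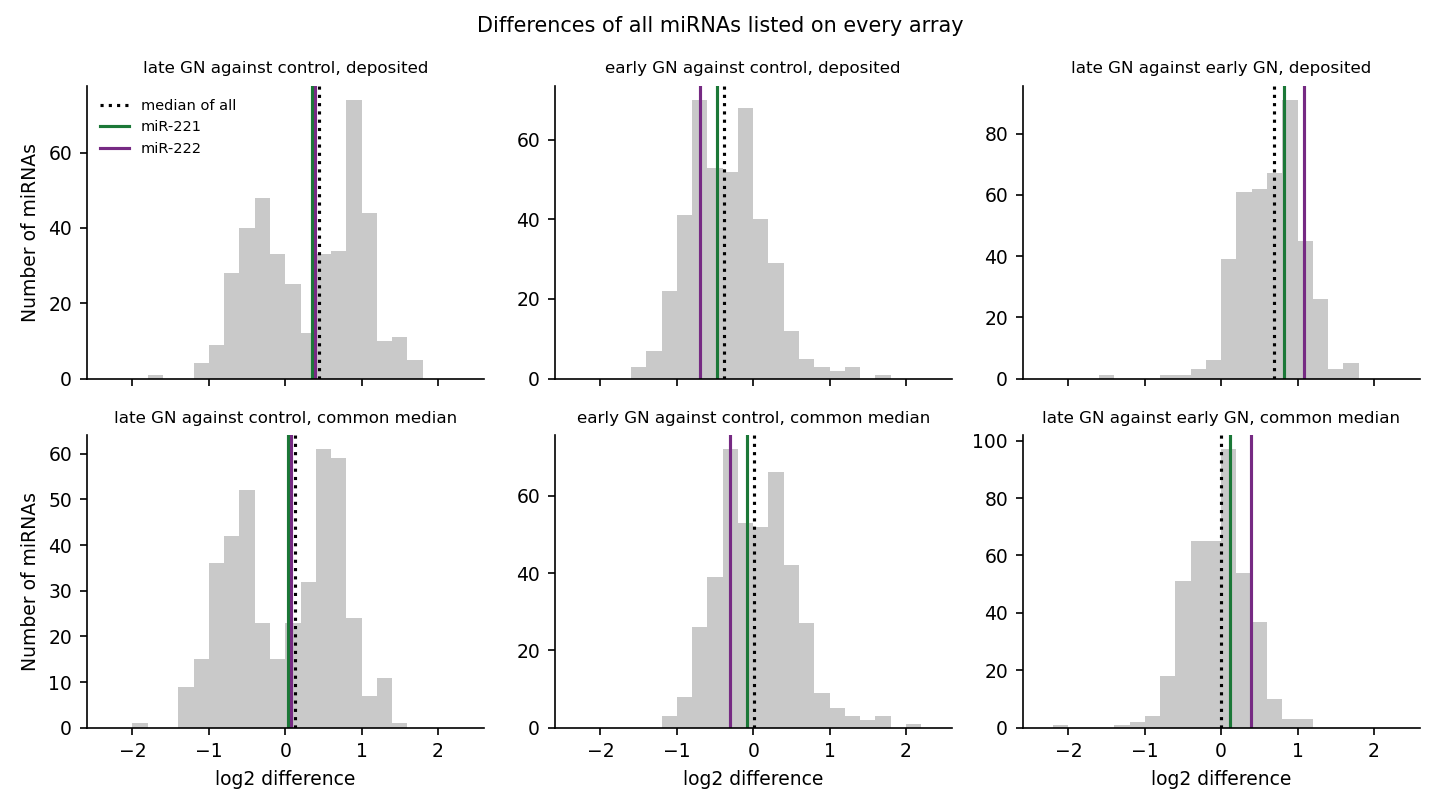
Histograms of the log2 difference of the 411 miRNAs in 3 comparisons, on the deposited scale (top) and with each array set to a common median (bottom); lines mark miR-221, miR-222 and the median of all. In late GN against control, both members lie in the trough between 2 mounds, near the median of 0.45 on the deposited scale.

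In early GN against control glomeruli, the question was whether the pair differed before disease was advanced, in mice of the same age. Both means were below control, at 0.744 times for miR-221 and 0.722 times for miR-222, and neither passed the test. The log2 difference was -0.47 for miR-221 (95% interval -1.34 to 0.40, limma adjusted p = 0.600) and -0.69 for miR-222 (95% interval -1.56 to 0.18, limma adjusted p = 0.375). The groups overlapped for both, and the exact permutation test (2-sided) gave p = 0.3 for miR-221 and p = 0.4 for miR-222. limma called 1 of 411 miRNAs (0.243%) higher and 0 (0%) lower. Before adjustment, 9 were higher and 56 lower at p under 0.05 by limma, 3 and 16 by the methods' t-test and 3 and 21 by Dunnett's test, and these last tests called 0 in either direction after adjustment. The median of all 411 was -0.38, and 26 miRNAs (6.33%) lay wholly below control.

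Both early GN values turned on array 3. Without it, miR-221 was at -0.71 (limma adjusted p = 0.0104) and miR-222 at -1.26 (limma adjusted p = 0.000872) from control, and both were called lower. So were 232 of the 411 miRNAs (56.4%), so that the call was shared by most miRNAs. The remaining early GN arrays are those that share the table format of the control arrays, and with a common median their mean differed from control by 0.08 for miR-221 and -0.46 for miR-222. With all arrays set to a common median, the log2 difference was -0.09 for miR-221 (95% interval -0.55 to 0.38, limma adjusted p = 0.792) and -0.31 for miR-222 (95% interval -0.76 to 0.15, limma adjusted p = 0.286), and 44 miRNAs (10.7%) were called, 28 (6.81%) higher and 16 (3.89%) lower. On the only slide that carried both groups, early GN array 1 was -0.51 from control array 3 for miR-221 and -1.40 for miR-222, where the median of all miRNAs was -1.01.

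Late GN was also set against early GN, which share the B6.MRLc1 strain and differ in stage and age. miR-221 was 1.71 times and miR-222 1.80 times the early GN mean. The log2 difference was 0.82 for miR-221 (95% interval -0.05 to 1.69, limma adjusted p = 0.167) and 1.09 for miR-222 (95% interval 0.21 to 1.96, limma adjusted p = 0.104), so that neither was called. The late GN arrays lay wholly above the early GN arrays for miR-221 (exact permutation p = 0.1, 2-sided), as they did for 88 of 411 miRNAs (21.4%), and overlapped them for miR-222 (exact permutation p = 0.3, 2-sided). limma called 6 miRNAs (1.46%) higher and 1 (0.243%) lower, and the median of all was 0.70.

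miR-222 was nearer the upper end of that distribution than miR-221. Of the other 410 miRNAs, 355 had a smaller difference than miR-222 and 249 a smaller one than miR-221. With a common median it was 0.39 for miR-222 (95% interval -0.07 to 0.84, limma adjusted p = 0.267) and 0.12 for miR-221 (95% interval -0.34 to 0.58, limma adjusted p = 0.750), and 1 miRNA (0.243%) was called. Without early GN array 3 both were called higher, at 1.06 for miR-221 (limma adjusted p = 0.00136) and 1.65 for miR-222 (limma adjusted p = 0.000664), together with 91.5% of the 411 miRNAs. Set against early GN array 3 alone, the array that shares the table format of late GN, the late GN mean differed by 0.33 for miR-221 and -0.05 for miR-222, where the median of all miRNAs was -0.12; with 1 early GN array this has no test.

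**Figure D3:**
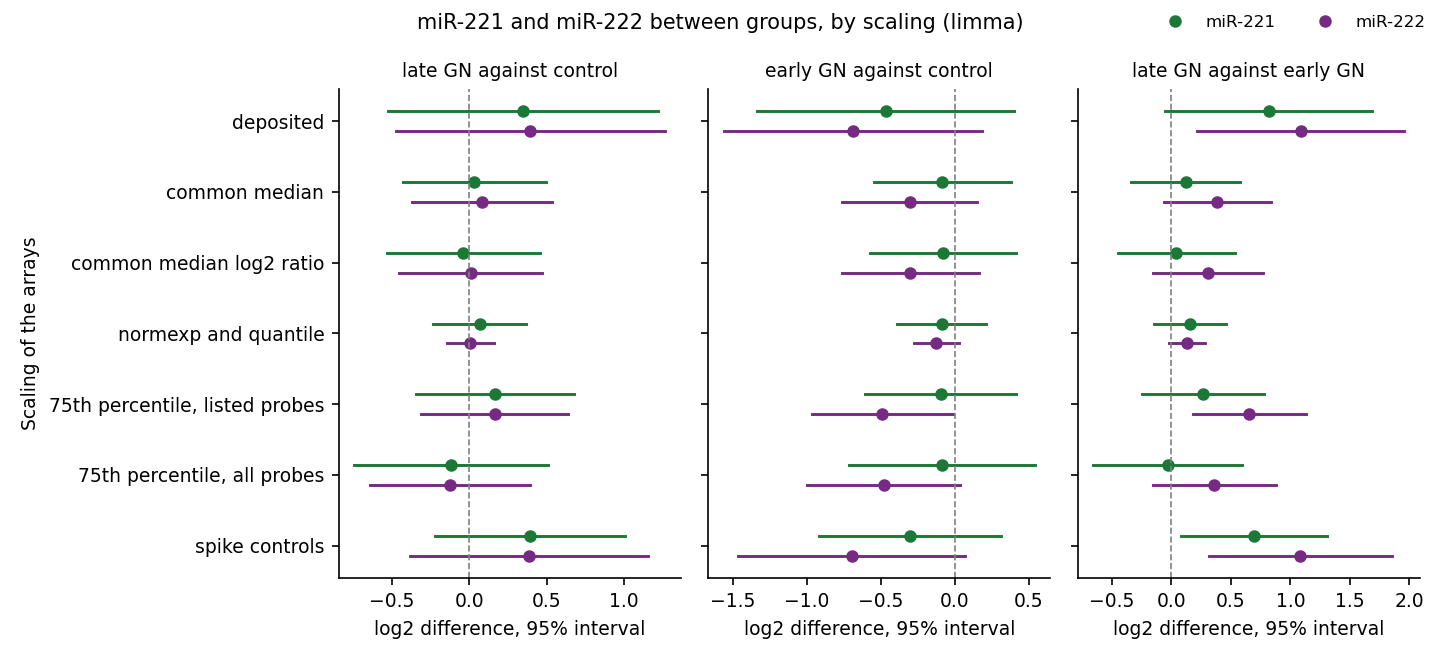
Log2 difference with its 95% interval from limma for miR-221 and miR-222 in 3 comparisons (panels), under 7 scalings of the arrays (rows). In late GN against control the points run from -0.12 to 0.39 and every interval takes in 0, and in early GN against control all points are below 0.

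Because miR-221 and miR-222 come from a single locus, their ratio within an array was compared, in which any factor of the whole array cancels. Only its change between groups can be read, since the probes need not be equally bright. The log2 ratio of miR-221 to miR-222 was 2.57, 2.27 and 1.45 on early GN arrays 1, 2 and 3, 1.87, 1.86 and 1.76 on late GN arrays 1, 2 and 3, and 1.60, 2.34 and 1.69 on control arrays 1, 2 and 3. The groups overlapped, with early GN and control arrays spread widely and late GN arrays close together. The mean was 2.10 ± 0.58 in early GN, 1.83 ± 0.06 in late GN and 1.88 ± 0.41 in control (SD, n = 3 each). The difference was -0.05 for late GN against control (exact permutation p = 1, 2-sided), 0.22 for early GN against control (p = 0.8) and -0.27 for late GN against early GN (p = 0.5). Without early GN array 3 the last of these was -0.59, and then both early GN arrays lay above the 3 late GN arrays (exact permutation p = 0.1, the smallest possible for 3 arrays against 2). With each array left out in turn, the difference of late GN against early GN ran from -0.59 to -0.031. On early GN arrays 1 and 2, miR-222 lay only 4.88 and 4.21 blank SDs above the blank mean.

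**Figure D4:**
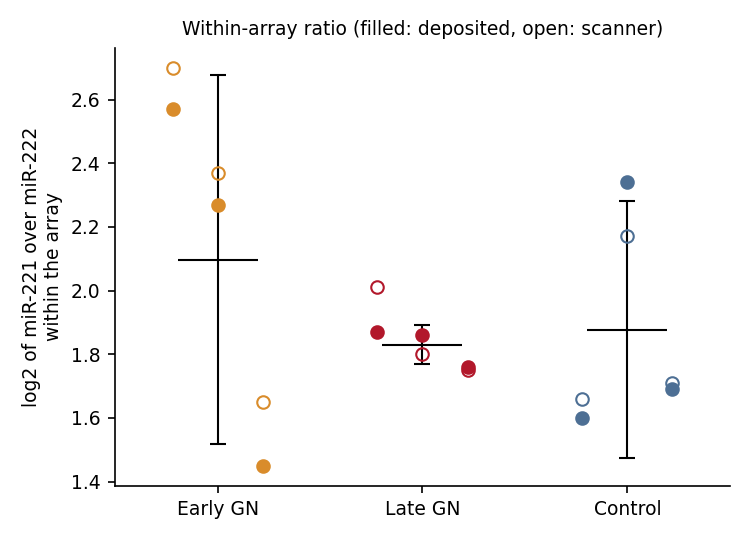
Log2 ratio of miR-221 to miR-222 on each array of early GN, late GN and control glomeruli. Filled points use the deposited values and open points the spot signal above the blank mean; bars are the mean and SD of 3 filled points. Late GN arrays lie between 1.76 and 1.87 on the deposited values, inside the range of the control arrays, 1.60 to 2.34.

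Across the 9 arrays miR-221 and miR-222 moved together on the deposited scale and not after the shared shifts were removed. Pearson's r of their log2 values was 0.89 on the deposited scale and -0.05 with a common median. On the deposited scale the median r with the other 410 miRNAs was 0.68 for miR-221 and 0.73 for miR-222. By r on that scale, miR-222 ranked 7 among the 410 for miR-221, and miR-221 ranked 40 among the 410 for miR-222. These are descriptions over 9 arrays that share 3 group means, and carry no test. On the common median scale, the miRNAs most like miR-221 were miR-223 (r = 0.89), a miRNA of neutrophils and monocytes, miR-872* (0.69), miR-146a (0.68), which restrains NF-κB signalling in immune cells, miR-199a-5p (0.67), a miRNA of mesenchymal cells, and miR-362-5p (0.62). Those most like miR-222 were the probe shared by miR-486 and miR-3107 (r = 0.83), of which miR-486 is abundant in red blood cells, miR-3096b-3p (0.79), miR-1186 (0.77), miR-339-5p (0.76) and miR-132 (0.74). No miRNA stood in both sets of 5.

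The passenger strands, the arms that are mostly discarded when the duplex is loaded, gave little or no signal. The probe of miR-221* was unlisted on all 9 arrays, with spot medians of 27 to 35, around the blank mean. miR-222* was listed at 4.77 and 6.99 on early GN arrays 1 and 3, at 10.32, 7.51 and 10.91 on late GN arrays 1, 2 and 3, and at 9.13 on control array 1, and was unlisted on the other 3 arrays. It was thus listed on all late GN arrays, on 2 of 3 early GN arrays and on 1 of 3 control arrays, with a spot signal at most 9.51 units above the blank mean. The late GN arrays also listed more probes of any kind, 693 to 755 against 588 to 595 on the control arrays. Listing did not simply follow signal, since late GN array 2 was listed at 3.62 units above the blank mean and early GN array 2 unlisted at 3.88. miR-1928, which shares the seed, was unlisted on all 9 arrays, so miR-221 and miR-222 were the members of this seed family with a listed value on every array.

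Other miRNAs that act on the cell cycle were set beside the pair. All 12 members of a list of miRNAs that promote the cycle, mostly members of miR-17-92 and its paralogous clusters, were tested. On the deposited scale limma called 0 of them in each comparison, with 1 higher in late GN and 5 lower in early GN against control, and 3 higher in late GN against early GN, at p under 0.05 before adjustment. Over all 411 miRNAs the same unadjusted counts were 113, 56 and 124. The median log2 difference of the 12 was -0.23 in late GN and -0.83 in early GN against control. With a common median it was -0.55 and -0.45 in the same comparisons, against 0.13 and 0.01 for all 411 miRNAs. On that scale 9 of the 12 were called lower in late GN, against 29.9% of the 411, among them miR-17 (-0.65, adjusted p = 0.00963 from limma), miR-20a (-0.59, adjusted p = 0.0162) and miR-19b (-0.52, adjusted p = 0.0249), of which miR-17 and miR-20a repress the cycle inhibitor p21. Of the 12, 8 had a control mean of 100 to 1000, where 39 of all 96 miRNAs were called lower and the median was -0.43. miR-21, known for growth and fibrosis, was the 1 member of the list called higher (0.86, adjusted p = 0.0192 from limma). With each array left out in turn, miR-17 kept its call in all 9 fits, miR-20a in 8, miR-21 in 6 and miR-19b in 5.

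Of 23 probes of miRNAs that restrain the cell cycle, 21 were tested. On the deposited scale 1 was called, miR-195 of the miR-15/16 family, which represses cyclins, lower in late GN than in control (log2 difference -1.67, adjusted p = 0.0160 from limma). This call was lost without any 1 control array or without late GN array 2, where the difference was -0.81 (adjusted p = 0.419). With a common median 18 of the 21 were called lower in late GN against control, against 29.9% of the 411, and 4 in early GN against control, against 3.89%. The median of the list was -0.93 in late GN, and 14 of its 21 members had a control mean of 1000 or more, a range whose median over all miRNAs was -0.79. let-7c (-1.27, adjusted p = 0.00186), let-7a (-1.07, adjusted p = 0.00397), let-7d (-0.93, adjusted p = 0.00250) and miR-26a (-0.93, adjusted p = 0.00390) were among them, and kept their calls with any 1 array left out.

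Of the miRNAs of the vessel wall, 15 were tested, and the pair is studied beside them in endothelium and smooth muscle. With a common median 13 of the 15 were called lower in late GN, against 29.9% of the 411, and 1 was called higher, miR-21, which this list shares with that of cycle promoting miRNAs. It also shares miR-17 and miR-92a with that list, and miR-23b, miR-24 and both arms of miR-126 with the cell type lists below. Of the 15, 11 had a control mean of 1000 or more, where 39 of all 58 miRNAs were called lower. miR-126-3p, which maintains the endothelium, was at -0.83 (adjusted p = 0.00367 from limma), and miR-23b, miR-24 and miR-23a, of paired clusters active in endothelium, were at -0.84, -0.83 and -0.70 (adjusted p = 0.00305 to 0.00688). On the deposited scale limma called 0 of the 15 in late GN against control. Before adjustment 1 was higher and 0 lower at p under 0.05, against 113 and 12 of all 411 miRNAs. miR-31 was called higher in late GN than in early GN on that scale (1.66, adjusted p = 0.0195 from limma), a call kept in only 1 of the 9 fits that leave out an array. With a common median miR-31 was at 0.96 in that comparison and was not called (adjusted p = 0.104 from limma).

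The other miRNAs of chromosome X lay on both sides of the pair, with log2 differences of -1.05 to 1.33 in late GN against control. Of these, 31 were tested, and their median log2 difference was -0.08 in late GN and -0.62 in early GN against control. With a common median 8 of the 31 were called higher and 12 lower in late GN, near the 32.1% and 29.9% of the 411, so these counts do not set the X-linked miRNAs apart. miR-322, a cell cycle restraining miRNA and one of the X-linked miRNAs with the highest control level, was called lower (-0.93, adjusted p = 0.00390 from limma), and miR-2137, miR-322* and miR-20b were not called in that comparison. On the deposited scale 2 were called higher in late GN than in early GN, miR-223 (1.76, adjusted p = 0.0155) and miR-3472 (1.79, adjusted p = 0.0155), against 1.46% of the 411. Each kept its call in 5 of the 9 fits that leave out an array. With a common median miR-223 was at 1.06 (adjusted p = 0.243 from limma) and miR-3472 at 1.09 (adjusted p = 0.136), so that neither was called.

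Glomerular RNA comes from several cell types, and in such bulk RNA fewer cells of a type and less RNA per cell cannot be told apart. All 9 arrays listed both endothelial miRNAs (miR-126-3p and miR-126-5p), all 5 mesangial and smooth muscle miRNAs and all 8 podocyte-associated miRNAs. The summed value of the podocyte-associated list was 29980 to 72280 in early GN, 43760 to 49560 in late GN and 67820 to 74870 in control, and that of the endothelial list was 10090 to 21870 in early GN, 15470 to 20720 in late GN and 24620 to 27460 in control. Leukocyte miRNAs, of which 5 of 6 were listed on all arrays (miR-155 was not), summed to 221.2 to 901.1 in early GN, 718 to 1297 in late GN and 514.4 to 857.2 in control. So the sums of podocyte-associated and endothelial miRNAs were lower in late GN than in control, and the leukocyte sums, in which miR-146a had the highest control mean, overlapped. All podocyte-associated and endothelial miRNAs had a control mean of 1000 or more, a range whose median log2 difference over all miRNAs was -0.47 in that comparison. Of the 5 leukocyte miRNAs, 3 had a control mean under 100, a range whose median over all miRNAs was 0.69 in that comparison. Taken one by one, the 5 leukocyte miRNAs had a median log2 difference of 1.09 in late GN against control, where that of all 411 was 0.45. limma called 0 of them, and 3 were higher at p under 0.05 before adjustment, miR-142-3p (1.25, adjusted p = 0.0796), miR-223 (1.20, adjusted p = 0.1003), the miRNA most like miR-221, and miR-142-5p (1.09, adjusted p = 0.109). miR-146a and miR-150 were at 0.44 and -0.24, and of all 411 miRNAs 113 were higher at that unadjusted threshold. Set to a common median, miR-142-3p was called higher (0.94, adjusted p = 0.0343 from limma), as were 32.1% of the 411, and the other 4 leukocyte miRNAs were not called. That call was lost without control array 1 or 2 or late GN array 1 or 3, at 0.68 to 1.00 (adjusted p = 0.0585 to 0.117). The sum over the mesangial and smooth muscle list was 4472 to 9823 in early GN, 7548 to 9168 in late GN and 9806 to 10930 in control, so it too was lower in late GN than in control. This sum was mostly miR-145 and miR-143, with control means of 5328 and 3860. On the deposited scale they were at -0.54 and -0.21 in late GN against control. The probe shared by miR-199a-3p and miR-199b was at -0.13, miR-199a-5p at 0.12 and miR-214 at 0.54. Of these 5, limma called 0 on that scale. The sums of the proximal tubule list were 367.4 to 1066 in early GN, 1065 to 1274 in late GN and 786 to 1142 in control. Of the 3 red blood cell miRNAs, 2 were listed on all arrays (miR-144 was not), with sums of 214.2 to 828.5 in early GN, 454.9 to 713.5 in late GN and 856 to 974.6 in control. Red blood cell sums were below control on every GN array, and tubule sums overlapped between late GN and control. The red blood cell sum was mostly miR-451, with a control mean of 908.3, which with a common median was called lower in late GN (-1.15, adjusted p = 0.00358 from limma), while the probe shared by miR-486 and miR-3107, with a control mean of 20.9, was at 0.30 (adjusted p = 0.353). Of the tubule miRNAs, miR-204 was called lower on that scale (-1.31, adjusted p = 0.00106 from limma), and miR-194 and miR-192 were at 0.17 and 0.04 (adjusted p = 0.539 and 0.857). The calls of miR-451 and miR-204 in late GN against control were kept with any 1 array left out. On that scale 29.9% of the 411 were called lower in that comparison. The part of these cell types in the values of miR-221 and miR-222 was not tested.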

How the data were processed

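The authors hybridized glomerular RNA of each mouse to a single-colour 3D-Gene array and read it with the 3D-Gene scanner. The deposited values are linear fluorescence intensities to which the authors had applied a global normalization. Among probes above 2000 they equalled the spot median minus the blank mean, times a single factor per array (1.09 to 2.34). For dimmer probes they departed from this by a few spot units, and the origin of that scatter is not given in the sources used here, nor is the rule that left probes unlisted. The number of arrays limits the precision, and with a single array per mouse the spread between mice cannot be told apart from that between arrays.

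Log2 values of the 411 probes listed on all 9 arrays were fitted with limma 3.58.1 (R 4.3.3, lmFit and eBayes, all groups together, no pseudocount). Tests were 2-sided with Benjamini-Hochberg adjustment over the 411 in each comparison, and a call means an adjusted p under 0.05. The moderated fit gave each miRNA the same SE of 0.44 on the deposited scale, from a single spread taken over all miRNAs and all groups. The limma p-values on that scale thus do not measure a member's own spread between mice. The limma step was tested on simulated data without any shift of whole arrays, so that test does not cover the array shifts of the deposited scale. Members, and ratios within an array, were also compared by exact permutation tests. Alternatives were 6 other scalings of the arrays (normexp with an offset of 50 and quantile normalization among them), a wider set of probes, a pseudocount of 16, Dunnett's test (mvtnorm 1.3.3) and the methods' t-test, a block for replicate number or for slide, limma with trend and robust settings, fits of only the groups compared, the series table, and each array left out. The scaling to a common median log2 ratio was chosen after seeing the data. The members and the miRNA lists were chosen with earlier results of these data known, so the lists are descriptions. Some miRNAs, miR-26a among them, stand in several lists, so the counts of different lists are not independent. The text names the members, their passenger strands, probes with the same seed, the 5 miRNAs most like each member, and from each list the called members and the 4 with the highest control mean. Names were matched to the RefSeq table for 879 probes. The guide name miR-221 or miR-222 was read as the 3p arm of that table. The passenger sequence of miR-222 and the sequencing, PCR and tissue data of the study were not used here. Python 3.11.15 with pandas 2.3.3, numpy 2.4.6 and matplotlib 3.10.9 made the tables and plots.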

Additional observations from a re-analysis of the deposited data

How the results depend on the processing

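The values of miR-221 and miR-222 were recomputed 142 times across the comparisons and alternatives. In 133 the direction and the side of the threshold were as reported, in 5 the miRNA passed the threshold and in 4 the sign turned. The sign turned with the 75th percentile of all probes, at -0.12 for miR-221 and -0.12 for miR-222 in late GN against control and -0.030 for miR-221 in late GN against early GN, and with a common median log2 ratio, at -0.039 for miR-221 in late GN against control. The methods' t-test called miR-221 in late GN against control, at 0.35 (adjusted p = 0.0378; 0.0378 to 0.888 over the alternatives that leave out no array), and the other 4 calls came without early GN array 3. With an array left out in turn, miR-221 ran from -0.71 to -0.28 and miR-222 from -1.26 to -0.40 in early GN against control, and miR-221 from 0.63 to 1.06 and miR-222 from 0.79 to 1.65 in late GN against early GN. The within-array log2 ratio turned to 0.060 with normexp and quantile and 0.0058 with the 75th percentile of listed probes or the spike controls in late GN against control, and to 0.024 with normexp and quantile in late GN against early GN. With an array left out it ran from -0.19 to 0.19 in late GN and from -0.017 to 0.54 in early GN against control. In late GN against early GN it ran from -0.59 to -0.031.

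The counts of called miRNAs moved more. In late GN against control, 17 became 255 with a common median, 222 with a common median log2 ratio, 152 with normexp and quantile, 176 and 158 with the 75th percentile of listed and of all probes, 29 with the spike controls, 26 in the wider set, 42 with the pseudocount, 11 with trend and robust moderation, 272 with only the groups compared, 218 by the methods' t-test, and 0 with slide as a random block or by Dunnett's test. In early GN against control, 1 became 44, 40, 57, 15 and 20 under the first 5 of these scalings, 15 with the pseudocount, and 0 with the spike controls, slide as a random block, only the groups compared, the methods' t-test or Dunnett's test. In late GN against early GN, 7 became 1, 2, 0, 0 and 0 under the same 5 scalings, 1 with the spike controls or trend and robust moderation, 4 with slide as a random block, and 0 with only the groups compared or by the methods' t-test; Dunnett's test compares with control only. With an array left out the counts ran from 0 to 228, 0 to 237 and 0 to 376 in these comparisons. The highest counts came without early GN array 3, and the count was 0 in both comparisons with control without any 1 control array. Where a count was 0, 48 to 104, 19 to 67 and 46 to 93 miRNAs had an unadjusted p under 0.05 in the 3 comparisons. The cause of these changes was not tested.

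Same-numbered arrays did not pair, with correlations of deviations from -0.22 to 0.34. With the replicate block the counts were 16, 1 and 5, and neither miRNA was called.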
